A study of Mus musculus with 12 samples.

Results

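Regions that carried almost no DNA methylation in wild-type progenitors were examined in lineage-negative bone marrow cells of BALB/c mice with a Dnmt1 mutation and of wild-type BALB/c mice. The regions were all those of the deposited candidate table whose mean over the 3 wild-type replicates was under 10%, which left 4511 of 107115 candidate regions (4.21%). Such cells are bone marrow from which mature blood lineages have been removed by their surface markers, which leaves stem and progenitor cells enriched. In the labels the mutant genotype reads dnmt1-/-, whereas the series describes a missense change modelled on hypomorphic fish alleles. The groups were 6 mutant and 6 wild-type samples, with 3 replicate numbers in each genotype and, for each number, 2 libraries, of which 1 was bisulfite-converted and 1 enzymatically converted. Both kits of a number share 1 column name, so every value below rests on n = 3 mutant and n = 3 wild-type columns. Coordinates are those of mm10.

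In mammalian DNA most CpGs carry a methyl group on the cytosine, and Dnmt1 copies that mark onto the new strand after replication. Stretches dense in CpGs, called CpG islands, are the main exception. They lie at the starts of many genes, above all broadly expressed ones, and at genes of developmental regulators that are held silent in blood cells by other means.

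Because the wild-type columns chose the regions, the low wild-type level is not a result. The difference between genotypes at these regions uses the same columns and is given as a description. Levels are those of a mixed cell population, in which fewer methylated cells and fewer methylated CpGs per cell cannot be told apart. How many reads stand behind a level is unknown. Cytosines left unconverted in a library also read as methylated, and their share is not given with the levels. The labels do not say whether replicates are separate animals, and p-values therefore cover the spread between these samples, which may be technical.

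Sequences of the DNA just before 8 gene starts give examples from these regions, of which 336 overlapped such an upstream stretch. The sequences come from RefSeq, on GRCm38.p6, and each is the stretch that lies both in the region and upstream of the start. Some are only part of their region. Each is printed 5′ to 3′ on the gene's strand with its CpGs in capitals. Edar (chr10:58675697-58675813, minus strand), Tcp11 (chr17:28080749-28080886, minus strand) and Zscan22 (chr7:12897674-12897808, plus strand) stand for regions lower in every mutant replicate than in every wild-type replicate. Sox2 (chr3:34649745-34649943, plus strand), Hoxd1 (chr2:74762737-74762937, plus strand) and Vsx1 (chr2:150689138-150689317, minus strand) stand for developmental regulators, lower in every mutant replicate too. Gas2 (chr7:51861868-51861979, plus strand) and Mib2 (chr4:155669368-155669469, minus strand) stand for the few regions that were higher in every mutant replicate.
Edar: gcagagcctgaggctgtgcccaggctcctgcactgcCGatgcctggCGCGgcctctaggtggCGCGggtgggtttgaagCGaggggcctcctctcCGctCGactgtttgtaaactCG
Tcp11: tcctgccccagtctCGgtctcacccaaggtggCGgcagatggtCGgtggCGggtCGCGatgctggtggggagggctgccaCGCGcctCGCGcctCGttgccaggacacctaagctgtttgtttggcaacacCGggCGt
Zscan22: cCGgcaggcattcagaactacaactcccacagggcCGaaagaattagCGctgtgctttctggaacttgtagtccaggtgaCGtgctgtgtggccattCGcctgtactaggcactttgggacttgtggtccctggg
Sox2: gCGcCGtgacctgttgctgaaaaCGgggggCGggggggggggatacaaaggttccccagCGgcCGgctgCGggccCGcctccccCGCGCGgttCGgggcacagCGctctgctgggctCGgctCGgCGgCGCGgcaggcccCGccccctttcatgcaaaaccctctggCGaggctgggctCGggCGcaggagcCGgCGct
Hoxd1: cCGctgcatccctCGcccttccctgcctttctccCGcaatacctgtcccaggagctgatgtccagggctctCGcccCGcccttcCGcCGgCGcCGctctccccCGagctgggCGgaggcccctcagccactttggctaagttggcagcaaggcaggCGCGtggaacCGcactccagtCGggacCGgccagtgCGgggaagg
Vsx1: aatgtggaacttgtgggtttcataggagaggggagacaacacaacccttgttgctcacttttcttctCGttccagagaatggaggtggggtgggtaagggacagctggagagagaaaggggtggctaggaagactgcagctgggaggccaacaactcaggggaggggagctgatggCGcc
Gas2: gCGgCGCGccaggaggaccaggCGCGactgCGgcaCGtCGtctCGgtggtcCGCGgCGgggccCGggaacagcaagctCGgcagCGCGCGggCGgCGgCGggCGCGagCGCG
Mib2: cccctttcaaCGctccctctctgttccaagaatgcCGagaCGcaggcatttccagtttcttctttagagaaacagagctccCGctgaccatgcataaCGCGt

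CpG density varied widely among these stretches. The Gas2 stretch held 24 CpGs in 112 bases, or 21.4 per 100 bases, and the Sox2 stretch held 24 in 199 bases, or 12.1 per 100 bases. The Vsx1 stretch, part of a region of 496 bp, held 2 CpGs in 180 bases, or 1.11 per 100 bases. At Edar, the receptor for ectodysplasin in skin appendages, the whole region was at 0%, 0% and 0% in the mutant replicates, against 8.44%, 5.44% and 10.4% in the wild-type replicates. At Sox2, a pluripotency and neural transcription factor, the region was at 0%, 1.33% and 2% in the mutant, against 6.33%, 5.11% and 4.11% in the wild type. At Gas2, a growth-arrest gene whose region also overlaps Fancf of the Fanconi anaemia pathway, it was at 0.25%, 5.7% and 1% in the mutant, against 0%, 0% and 0% in the wild type. The groups did not overlap at any of these regions, and at Gas2 the mutant mean rested mostly on replicate 2.

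Over all 4511 regions the mean level was 1.43% ± 0.124 in the mutant, against 3.52% ± 0.139 in the wild type (SD over 3 columns each). The mutant columns averaged 1.29%, 1.48% and 1.52%, against 3.64%, 3.56% and 3.37% in the wild-type columns. Every mutant column lay below every wild-type column. The mean difference was -2.09 points and the median difference -1.78 points, and the mutant level was 40.7% ± 3.52 of the wild-type level. Regions at exactly 0% made up 30.8%, 29.7% and 23.1% of the mutant columns, against 16.0%, 16.8% and 17.4% of the wild-type columns. In the mutant 339 regions were at 0% in all 3 replicates, against 224 in the wild type, and 44 were at 0% in all 6 columns.

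**Figure D1:**
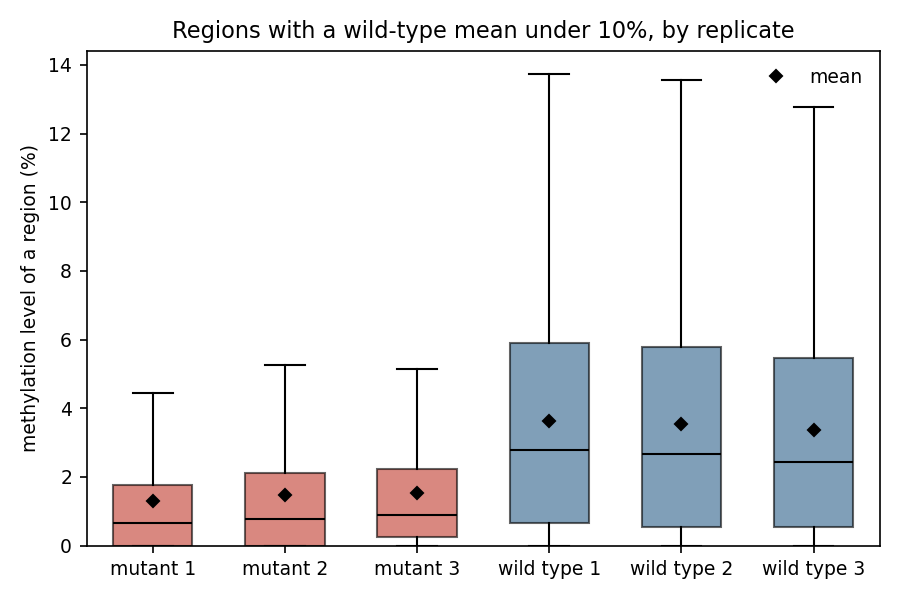
Methylation level (%) of the 4511 regions in each mutant and wild-type replicate. Boxes span the quartiles, lines mark medians, diamonds mark means and whiskers reach up to 1.5 times the box height. Mutant means lie between 1.29% and 1.52%, and wild-type means between 3.37% and 3.64%.

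The difference was also read in a wild-type replicate that had no part in choosing the regions. Regions were chosen on each pair of wild-type replicates and their level was taken from the one left out. The held-out replicate 1 averaged 4.04% over 4540 regions, where the mutant averaged 1.48% ± 0.0975 (SD, n = 3). The held-out replicate 2 averaged 3.79%, where the mutant averaged 1.44%, and the held-out replicate 3 averaged 3.54%, where the mutant averaged 1.43%. With replicates 1, 2 and 3 held out, the mutant mean was the lower value in 73.4%, 72.7% and 71.2% of the regions. Each of these comparisons has 1 held-out column and carries no test.

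Lower levels were more frequent in the mutant, although less so than across the candidate table. The mutant mean was below the wild-type mean in 3637 regions, above it in 784 and equal in 90. All 3 mutant replicates lay below all 3 wild-type replicates in 1830 regions, or 40.6%, against 94.3% of all candidate regions. All 3 lay above in 68 regions, or 1.51%, against 0.0952% of all candidate regions. Of these 68, 59 had a wild-type mean under 1%, where the choice on low wild-type values holds the wild-type columns down. In 1297 regions the means were within 1 point of each other. The spread between replicates was of the same order as these differences: the median SD was 0.642 points in the mutant, against 1.20 points in the wild type.

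limma on the level in percent, fitted to the whole table with Benjamini-Hochberg adjustment, called 600 of the regions lower in the mutant (13.3%, against 93.5% of all candidate regions) and 6 higher (0.133%, against 0.0485%). Nothing is read from these shares, since the choice of regions used the same contrast. A level under 10% cannot drop by more than 10 points, and the smallest difference called lower was -4.48 points. On a logit scale with an offset of 1 point limma called 2267 lower and 124 higher, and with a robust mean-variance trend 1313 lower and 20 higher. Of the 600, 596 had a wild-type mean of at least 5%. The count of 600 became 306, 325 and 341 without wild-type replicates 2, 1 and 3, and 329 without mutant replicate 2. The count of 6 became 1 without wild-type replicate 1 and 12 without mutant replicate 1. None of the regions stood in the authors' lists of 35439 hypomethylated or 4 hypermethylated regions.

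Regions were also grouped by their wild-type mean, which itself enters the difference, so the trend over these groups is partly fixed by the grouping. Where the wild type averaged 5 to 10%, the mutant columns averaged 2.25%, 2.64% and 2.75%, against 7.57%, 7.46% and 7.14% in the wild-type columns (1361 regions), so that the mutant kept 34.5% ± 3.60 of the wild-type level. At 2 to 5% the mutant kept 35.4% ± 3.87 (1339 regions), and at 1 to 2% it kept 46.5% ± 2.57 (642 regions). The mutant mean was 0.686% at 1 to 2% and 0.840% under 1%. How much of such low levels is unconverted cytosine was not tested. Regions just above the threshold, at 10 to 20%, had 36.3% ± 2.82 left (1655 regions). The share left was 47.2% at 20 to 50%, 62.2% at 50 to 80% and 81.4% at 80 to 100%. Between a wild-type level of 2% and 20% the share left in the mutant thus stayed between 34.5% and 36.3%, and it was larger at each step above. Groups formed on 2 wild-type replicates and read in the third, added after the data had been seen, left the mutant with 32.9% to 34.9% of the held-out level at 5 to 10%, 34.8% to 36.8% at 2 to 5% and 41.0% to 51.2% at 1 to 2%.

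**Figure D2:**
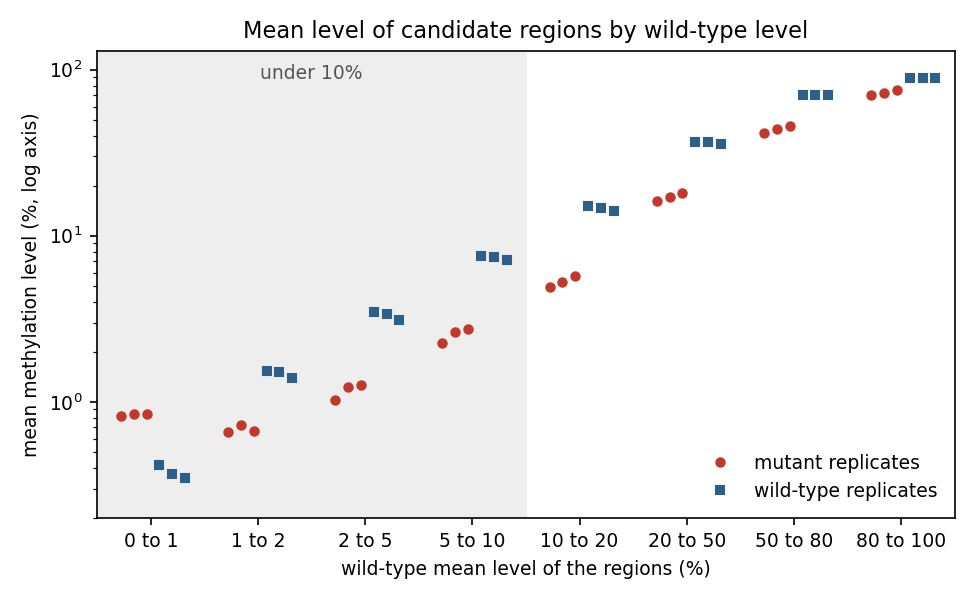
Mean methylation level (%, log axis) of candidate regions grouped by wild-type mean, for each mutant replicate (circles) and wild-type replicate (squares). Shading marks the regions under 10%. Mutant points lie below wild-type points in every group but the first, where the wild-type level is low by choice.

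The 1169 regions with a wild-type mean under 1% ran the other way. They averaged 0.840% ± 0.0129 in the mutant, against 0.379% ± 0.0352 in the wild type (SD, n = 3 each), and 635 of them were higher in the mutant while 449 were lower. Choosing on low wild-type values holds the wild-type mean down, so the same regions were read in a held-out replicate, an alternative added after the data had been seen. With replicate 1 held out, the regions under 1% averaged 0.844% in the mutant, against 1.46% in the held-out column. With replicate 2 held out the values were 0.816% in the mutant, against 0.954% in the held-out column, and with replicate 3 they were 0.811% in the mutant, against 0.835% in the held-out column. The higher mutant mean was therefore not seen in wild-type columns that the cut on the wild-type mean had not used. With replicate 1 held out the mutant averaged less by 0.614 points, whereas with replicate 3 held out the difference of -0.0246 points was within the SD of the mutant columns, 0.0286 points.

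Values around the threshold show how gradual it is. Just inside lay regions in Icmt, a methyltransferase of prenylated proteins, Gpr83, a G protein-coupled receptor, and Dlgap3, a postsynaptic scaffold. The Icmt region was at 0.778%, 2.89% and 2.11% in the mutant, against 12.1%, 9.56% and 8.22% in the wild type. Just outside, at a wild-type mean of exactly 10%, lay regions in Ran, Frmd3 and Fgf10. The Fgf10 region was at 1.89%, 1.78% and 3.11% in the mutant, against 11.9%, 6.44% and 11.7% in the wild type. The Ran region, at 14.6%, 16.7% and 11.2% in the mutant, against 10.4%, 9.33% and 10.2% in the wild type, shows the opposite direction. In 598 of the 4511 regions at least 1 wild-type replicate was at 10% or more, and 3150 regions (69.8%) had a wild-type mean under 5%.

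Position is a feature that the choice did not use. Of 4416 regions on chromosomes with gene starts in the RefSeq promoter table, 2102 (47.6%) lay within 1 kb of a protein-coding gene start, against 4.63% of the other candidate regions. The change was gradual: the share was 27.1% at a wild-type mean of 10 to 20% and 17.1% at 20 to 50%. Of the 4416 regions a further 1653 (37.4%) overlapped a gene body, against 65.3% of the others, and 661 (15%) lay elsewhere. The median distance from a region's edge to the nearest start was 1269 bp, against 26568 bp for the others. The start table covers 17469 genes, against 21900 protein-coding genes. A region at a start that the table lacks counts as gene body or elsewhere, and its distance is too long. The regions under 10% were short, with a median of 179 bp, against 333 bp at 10 to 20% and 679 bp for all the others.

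Around gene starts the regions sat mostly on the transcribed side. Within 1 kb of a start, 72.4% of the region centres lay downstream, against 64.3% for the other candidate regions, and 29.7% lay in the first 250 bp downstream, against 12.9%. The first 250 bp upstream held 16.8% of the centres, against 8.32% for the others. The median centre was 187 bp downstream of the start. Regions at gene starts averaged 1.20% ± 0.0969 in the mutant, against 2.84% ± 0.0880 in the wild type, and gene-body regions averaged 1.62% ± 0.141 in the mutant, against 4.12% ± 0.215 in the wild type (SD over 3 columns each). The share left in the mutant was 42.1% at gene starts, 39.3% in gene bodies and 39.7% elsewhere.

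**Figure D3:**
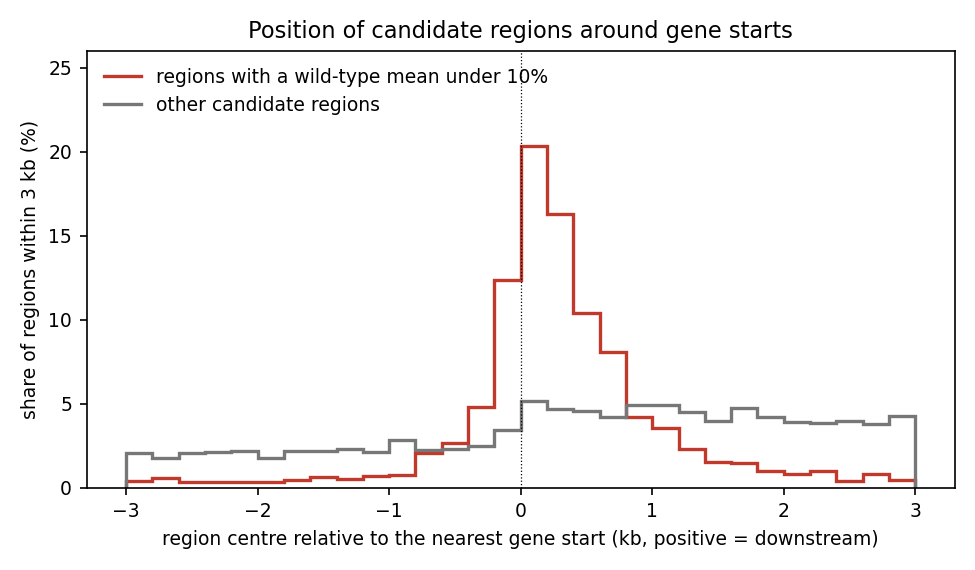
Share (%) of region centres within 3 kb of a protein-coding gene start that falls in each 200 bp bin, by distance from the start (kb, positive downstream), for the regions with a wild-type mean under 10% and for the other candidate regions. The first curve peaks at 20.3% just downstream of the start, and the second stays between 1.76% and 5.15%.

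CpG content differed between these gene starts and those with other candidate regions, which is given as a description without a test. The table held 21238 windows of 300 bases, from 250 before to 50 after a start, and 778 of them overlapped a region under 10%. These windows had a median of 22 CpGs and 63.3% G and C, with an observed-to-expected CpG ratio of 0.766. The 1471 windows that overlapped only other candidate regions had a median of 7 CpGs, 56% G and C and a ratio of 0.342, and all windows had medians of 13 CpGs and 0.567. At least 15 CpGs stood in 79.7% of the windows with a region under 10%, in 18.9% of those with other candidate regions only and in 46.8% of all windows.

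**Figure D4:**
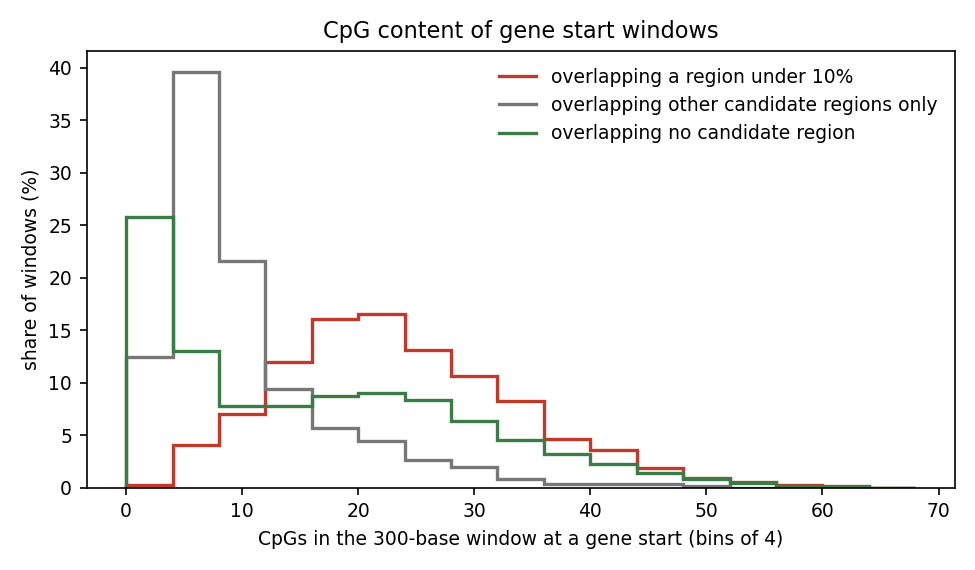
Share (%) of 300-base gene start windows by their number of CpGs (bins of 4), for windows overlapping a region under 10% (778), windows overlapping other candidate regions only (1471) and windows overlapping no candidate region (18989). The medians are 22, 7 and 13 CpGs.

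Short promoter motifs were counted in the same windows, on both strands. The GC box GGGCGG, bound by Sp-family factors, stood in 68.6% of the windows with a region under 10%, in 32.2% of those with other candidate regions only and in 46.2% of all windows. The letters CTCGCGAG, a palindrome of CpG-rich promoters, stood in 2.31%, against 0.408% with other candidate regions only and 1.24% of all windows. TATAAA, the core of the TATA box, stood in 5.40%, against 10.6% with other candidate regions only and 12.6% of all windows. CCAAT differed little, at 35.5%, against 36.8% with other candidate regions only and 38.2% of all windows. CACGTG, an E-box, stood in 10.8%, against 8.29% with other candidate regions only and 7.84% of all windows. GGGCGG, CTCGCGAG and CACGTG contain a CpG, whereas TATAAA and CCAAT contain none, and no motif overlaps another in its letters.

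Genes of developmental regulators held many of the regions. The list comprised 187 genes of homeobox, Pax, Sox, Fox, T-box and related families. Regions counted for a gene when they lay in its span or within 5 kb. At 137 of the 187 genes (73.3%) at least 1 region was under 10%, against 16.0% of 21900 protein-coding genes, with span length not matched. Of 721 candidate regions at these genes 293 (40.6%) were under 10%, against 4.21% of all candidate regions. Their mean was 2.08% ± 0.313 in the mutant, against 5.11% ± 0.126 in the wild type (SD over 3 columns each). The mutant columns averaged 1.72%, 2.18% and 2.32%, against 4.99%, 5.24% and 5.11% in the wild-type columns, without overlap.

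Of these 293 regions 273 were lower and 18 higher in the mutant, and 176 (60.1%) had all mutant replicates below all wild-type replicates, against 39.2% of the regions outside the list and 94.3% of all candidate regions. limma called 44 lower (15%, against 13.2% outside the list and 93.5% of all candidate regions) and 0 higher, and at an unadjusted p under 0.05 it had 49 lower and 0 higher. The count of 44 became 22 without wild-type replicate 2, 29 and 28 without wild-type replicates 1 and 3, and 28 without mutant replicate 2, where 1 region was called higher. On a logit scale the counts were 208 lower and 1 higher. Of these regions, 62 of the 290 that could be placed lay within 1 kb of a gene start, in a start table that does not cover all genes. The median difference was -2.97 points, against -1.70 points for the 4218 regions outside the list, where the wild-type level was also lower, at 3.41%. With the wild type held to 5 to 10%, the share left in the mutant was 37.8% at the developmental genes and 34.1% outside the list. At 2 to 5% it was 43.5% at the developmental genes and 34.6% outside the list.

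Hox genes, which set position along the body axis, had such regions at 22 of 37 genes of the list. Their 30 regions averaged 2.49% ± 0.444 in the mutant, against 5.98% ± 0.460 in the wild type, and 27 were lower. limma with Benjamini-Hochberg adjustment called 8 lower (26.7%, against 13.3% of the 4511 regions and 93.5% of all candidate regions) and 0 higher, also at an unadjusted p under 0.05, and 4 lower without wild-type replicate 3. On a logit scale 24 were called lower and 0 higher, and without mutant replicate 2 there was 1 called higher. These counts are not matched for wild-type level, which was 3.52% over all 4511 regions. Of the regions at a wild-type mean of 5 to 10%, limma called 43.8% lower. The share left in the mutant was 41.6% at the 30 Hox regions, against 40.7% over all 4511. In Hoxa3 a region was at 1.25%, 1.08% and 0% in the mutant, against 7.5%, 6.17% and 11.9% in the wild type (adjusted p = 0.00997). A region in Hoxc4 was at 15.7%, 5.33% and 15.3% in the mutant, against 6.89%, 5.78% and 9.78% in the wild type, and the groups overlapped. A region shared by the windows of Hoxb3, Hoxb5 and Hoxb6 was at 2.11%, 8.67% and 6.89% in the mutant, against 3.22%, 3.56% and 3.11% in the wild type.

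Some genes carried several regions side by side. With gaps of up to 5 kb joined, the 4511 regions formed 3224 loci, of which 2351 held 1 region and 39 held at least 5. Of those 39 loci 38 had a lower mean in the mutant. Among single regions 80.6% of the 4511 and 99.0% of all candidate regions were lower. Lhx5, a LIM homeobox gene of the forebrain, and Skor1, a transcriptional corepressor of the nervous system, had 9 regions each. At Lhx5 the mean over the 9 regions was 1.37%, 2.51% and 2.56% in the mutant, against 4.26%, 5.24% and 4.63% in the wild type. At Skor1 it was 0.891%, 1.54% and 1.16% in the mutant, against 5.03%, 4.63% and 5.09% in the wild type. All 9 regions were lower in the mutant at both genes, and the replicates did not overlap.

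At 33 of the 39 loci every mutant column mean lay below every wild-type column mean. Among single regions the replicates were separated this way in 40.6% of the 4511 and in 94.3% of all candidate regions. A mean over at least 5 regions is not like a single region, so nothing is read from the count of 33. Shh, the hedgehog ligand, had 6 regions, at 2.03%, 2.02% and 2.03% in the mutant, against 7.73%, 5.26% and 4.98% in the wild type. At Cilp2, a cartilage matrix gene, 8 regions averaged 0.987% ± 0.128 in the mutant, against 5.76% ± 0.869 in the wild type, and limma called 5 of them lower. Pitx1, a homeobox gene of the hindlimb, was not among the 39 loci but had 6 regions in or within 5 kb of it. Those were at 2.20% ± 0.156 in the mutant, against 6.86% ± 0.510 in the wild type, and 3 were called. At a wild-type mean of 5 to 10% limma called 43.8% of regions lower, and it called 93.5% of all candidate regions lower. Nothing is therefore read from the called counts at Cilp2 and Pitx1. The 6 other loci of the 39 had overlapping columns. At Sptbn4, a spectrin gene of axons, 6 regions averaged 2.32%, 4.49% and 2.39% in the mutant, against 4.56%, 5.13% and 2.24% in the wild type. At Klf15, a Krüppel-like transcription factor, 5 regions averaged 0.713% ± 0.798 in the mutant, against 1.44% ± 1.01 in the wild type. The single locus of the 39 with a higher mutant mean was Cracdl, with 5 regions at 2.48% ± 0.683 in the mutant, against 2.22% ± 1.51 in the wild type, where 2 were lower.

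The 10 most negative differences lay between -9.79 and -8.67 points. The region with the smallest adjusted p of all 4511 lay in Cacng2, an auxiliary subunit of glutamate receptors. It was at 0.333%, 0.778% and 0.333% in the mutant, against 9.11%, 10.6% and 10% in the wild type (difference -9.41 ± 1.94 SE, limma, Benjamini-Hochberg adjusted p = 0.00165). All mutant replicates lay under 1%. A region in Cdh22, a cadherin, was at 0%, 0.444% and 0% in the mutant, against 11.2%, 6.89% and 11.1% in the wild type (adjusted p = 0.00259). One in Pou3f1, a POU-domain transcription factor, was at 1.33%, 0% and 0.917% in the mutant, against 7.67%, 9.92% and 11.7% in the wild type (adjusted p = 0.0031). In Cd22, an inhibitory receptor of B cells, a region was at 0.444%, 0% and 0% in the mutant, against 8.33%, 14.2% and 5.22% in the wild type (adjusted p = 0.00939).

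Single wild-type replicates carried others of these 10. The most negative value, 117248 bp from Rad51b, was at 0%, 0% and 0% in the mutant, against 21.5%, 7.82% and 0% in the wild type, and was not called (adjusted p = 0.0744). Without wild-type replicate 3, at 0%, its difference was -14.7 points and it was called. A region in Grik5, a kainate receptor subunit, was at 0%, 0% and 0.294% in the mutant, against 19.4%, 3.29% and 5.47% in the wild type (adjusted p = 0.0483). Its difference of -9.27 points became -4.28 without wild-type replicate 1, and its call was lost there and without any 1 mutant replicate. At Tomm20, a receptor of mitochondrial protein import, the difference of -8.67 points became -4.98 without wild-type replicate 3, and the call was lost there and without any 1 mutant replicate.

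The 6 regions called higher lay in Arhgef17, Map4k1, Mad2l1, Ppp2r2d, Zfhx2 and Cacng6. The largest difference was in Arhgef17, a guanine nucleotide exchange factor. Its region was at 10.1%, 11.5% and 25.3% in the mutant, against 0.455%, 0.455% and 0% in the wild type (difference 15.3 ± 3.84 SE, limma, Benjamini-Hochberg adjusted p = 0.00461). Every mutant replicate was at least 10%, and every wild-type replicate was under 1%. Its call held in each fit with 1 replicate left out, and it was the single call left at a difference of at least 10 points.

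Ppp2r2d, a regulatory subunit of protein phosphatase 2A, had a region at 5.33%, 4% and 10.9% in the mutant, against 1.78%, 0% and 0% in the wild type (adjusted p = 0.0369). Zfhx2, a zinc-finger homeobox gene, had one at 10.2%, 11.2% and 13.8% in the mutant, against 6.44%, 6.78% and 4.33% in the wild type (adjusted p = 0.0248). The region in Cacng6, a calcium channel subunit, was at 14.6%, 17.0% and 14.8% in the mutant, against 7.11%, 10.1% and 12.4% in the wild type (adjusted p = 0.0404). These groups did not overlap. The Ppp2r2d call was lost without mutant replicate 3 or any wild-type replicate, the Zfhx2 call without mutant replicate 3 or wild-type replicate 1 or 3, and the Cacng6 call without mutant replicate 2 or wild-type replicate 1 or 2. Mad2l1, a spindle checkpoint gene, was at 10.3%, 17.0% and 16.9% in the mutant, against 5.78%, 6.89% and 9.22% in the wild type. Its call was lost without mutant replicate 2 or 3 or wild-type replicate 1 or 2. Map4k1, a kinase of blood cells, was at 15.4%, 15.8% and 8.97% in the mutant, against 0.931%, 10.3% and 1.03% in the wild type. The groups overlapped there, and the call was lost without mutant replicate 1 or 2 or wild-type replicate 1 or 3.

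**Figure D5:**
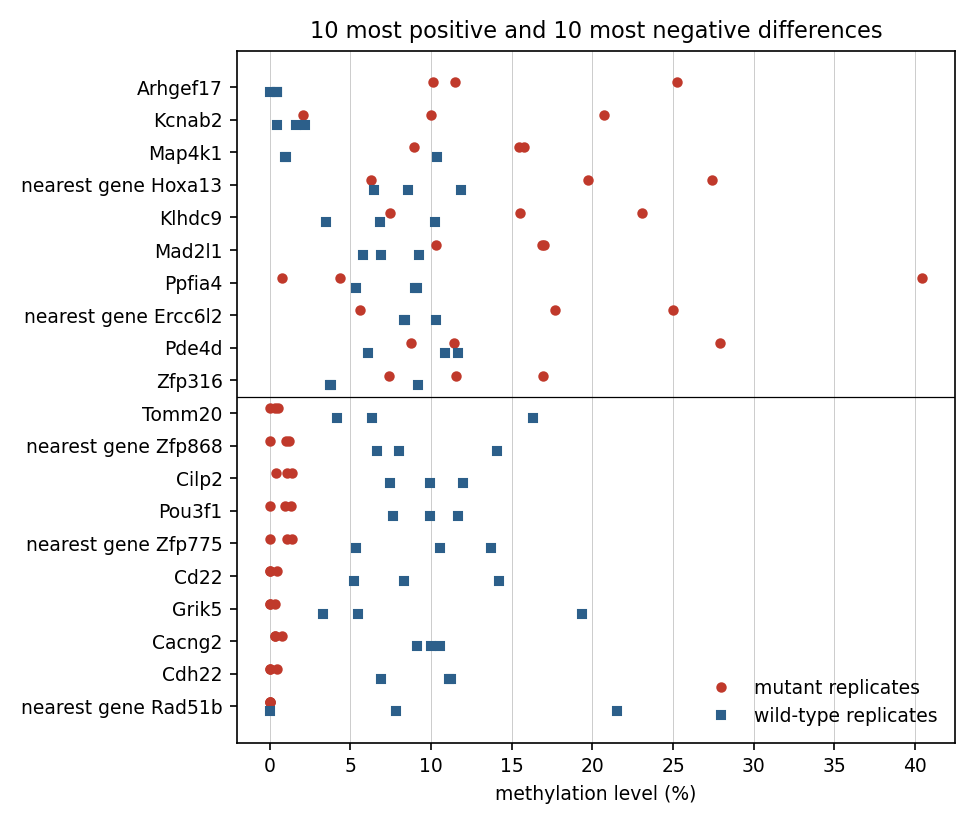
Methylation level (%) of each mutant replicate (circles) and wild-type replicate (squares) at the 10 regions with the most positive and the 10 with the most negative mutant minus wild-type difference, named by overlapping or nearest gene. Above the line the mutant points spread widely, up to 40.4% at Ppfia4, whereas below it they lie under 1.4%.

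Other large positive values rested on 1 or 2 mutant replicates. At Ppfia4, a synaptic scaffold gene, the region was at 0.778%, 40.4% and 4.33% in the mutant, against 9%, 9.11% and 5.33% in the wild type. The difference of 7.37 points was -5.26 without mutant replicate 2. In Kcnab2, a potassium channel subunit, the region was at 20.8%, 10% and 2.06% in the mutant, against 2.19%, 1.62% and 0.438% in the wild type (adjusted p = 0.0547, or 0.00485 without mutant replicate 3). A region 13220 bp from Hoxa13 was at 27.4%, 19.7% and 6.28% in the mutant, against 11.8%, 8.56% and 6.44% in the wild type (adjusted p = 0.103, or 0.00255 without mutant replicate 3).

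Among the 68 regions with all mutant replicates above all wild-type replicates, the median difference was 1.91 points. Of these, 59 had a wild-type mean under 1%, where the higher mutant mean was not seen in held-out wild-type columns. Of the 67 that could be placed, 47 lay within 1 kb of a gene start. Among all regions with a wild-type mean under 1% it was 740 of 1151 (64.3%), so nothing is read from that count. The lists of blood lineage genes held 3 of the 68, at Tal1, Spi1 and near Cebpa. Tal1, a master regulator of blood formation, had a region at 7.10%, 7.30% and 11.9% in the mutant, against 4.90%, 4.10% and 4.50% in the wild type (difference 4.27 ± 2.20 SE, limma, Benjamini-Hochberg adjusted p = 0.0914). Spi1, which encodes PU.1 of myeloid and B cells, had 2 regions under 10%, of which 1 was lower and 1 was at 4%, 4.22% and 5.78% in the mutant, against 1.56%, 0.333% and 1.89% in the wild type (adjusted p = 0.127). Neither the Tal1 region nor this Spi1 region passed the threshold. Prdm16, a regulator of stem cells and brown fat, was at 8.56%, 18% and 9% in the mutant, against 5.11%, 5.11% and 6.56% in the wild type (adjusted p = 0.0627). Lat, an adaptor of T cell receptor signalling, was at 4.56%, 5.89% and 5.89% in the mutant, against 2.33%, 2.56% and 2.56% in the wild type (adjusted p = 0.17).

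At genes of blood lineages and stem cells between 2.24% and 15.3% of the candidate regions were under 10%, against 4.21% of all candidate regions. Among B lymphoid priming genes 16 of 203 candidate regions were under 10%, at 1.69% ± 0.831 in the mutant, against 3.68% ± 0.130 in the wild type, with 12 lower. limma called 2 lower (12.5%, against 13.3% of the 4511 regions and 93.5% of all candidate regions), 8 on a logit scale with an offset of 1 point and 4 with a robust trend. Pax5, which fixes B cell identity, had 10 of these 16, at 1.35%, 2.81% and 1.89% in the mutant, against 4.74%, 4.91% and 5.29% in the wild type. Both called regions were at Pax5. One lay 3218 bp outside the gene, at 1.33%, 6.44% and 1.33% in the mutant, against 5.67%, 9.78% and 13.2% in the wild type (adjusted p = 0.0436), and its groups overlapped. The other, in the gene, was at 3.77%, 4.70% and 1.43% in the mutant, against 12.7%, 7.65% and 8.47% in the wild type (adjusted p = 0.0263). Its groups did not overlap. That call was lost without mutant replicate 3 or wild-type replicate 1, and the call outside the gene without mutant replicate 1 or 3 or wild-type replicate 2 or 3.

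Genes of granulocytes and monocytes had 13 of 85 candidate regions under 10%, of which 11 were lower. limma called 2 lower and 0 higher (15.4% lower, against 93.5% of all candidate regions), 8 lower and 2 higher on the logit scale, and 5 lower and 1 higher with the robust trend. Fcgr3, a low-affinity receptor for immunoglobulin G, had 6 regions, all lower, at 0.924%, 0.705% and 1.06% in the mutant, against 4.38%, 4.04% and 4.36% in the wild type. Both calls were at Fcgr3. The stronger of the pair was at 0.792%, 0.292% and 0.417% in the mutant, against 10.3%, 7.62% and 8.04% in the wild type (limma, Benjamini-Hochberg adjusted p = 0.0041), and the weaker (adjusted p = 0.0455) lost its call when any replicate was left out. Csf2ra, the receptor chain for the growth factor GM-CSF, had 4 regions, all lower, at 0.236%, 0.811% and 1.47% in the mutant, against 3.04%, 4.35% and 4.19% in the wild type. Replicates did not overlap at either gene.

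T and NK cell genes had 10 of 144 candidate regions under 10%, with 7 lower. limma called 1 lower (10%, against 93.5% of all candidate regions), and 4 lower and 1 higher on the logit scale. The single call was in Lck, the kinase of the T cell receptor. That region was at 3.76%, 3.06% and 2.94% in the mutant, against 11.5%, 9.59% and 5.53% in the wild type (adjusted p = 0.0399), and its call was lost without mutant replicate 2 or 3 or wild-type replicate 1 or 2. Erythroid and megakaryocyte genes had 5 of 121, of which 3 were lower. limma called 0, against 13.3% lower of the 4511 regions and 93.5% of all candidate regions. At an unadjusted p under 0.05 the count was also 0. On the logit scale 1 was called higher and 2 lower, and with the robust trend 1 higher and 1 lower. Stem and multipotent progenitor genes had 3 of 134, at Erg, Mycn and Gata2, all lower. Of these limma called 0, against the same 13.3% and 93.5%, with 0 at an unadjusted p under 0.05. It called the Erg region without wild-type replicate 2 and on the logit scale. At 5 and 3 regions nothing is read from 0 calls. The Gata2 region was at 1.11%, 9% and 3.56% in the mutant, against 3.67%, 8.89% and 10.9% in the wild type. Genes of marrow stroma and endothelium had 2 of 84, at Nes and Pdgfra. The Nes region was at 1.31%, 1.44% and 1.12% in the mutant, against 7.31%, 6.62% and 5.88% in the wild type (adjusted p = 0.0265), and its call was lost when mutant replicate 2 or any wild-type replicate was left out.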

How the data were processed

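Lineage-negative bone marrow DNA of 12 samples was sequenced in paired-end mode at 100 bp, per the labels' protocols. Positions are on mm10, per the submitters' processing notes. Neither the aligner nor the methylation caller is given in the sources used here, and neither is whether the reads of the 2 kits were merged in a column. For each candidate region the authors deposited a level in 6 columns, as a fraction from 0 to 1, with 2 lists of regions called with metilene, per the file names. No coverage accompanies the levels, so no coverage minimum was set, and the unknown depth and the number of replicates both limit the precision.

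Fractions were multiplied to percent. The 4511 regions were taken by their wild-type mean, and no region was filtered on low values. All 107115 candidate regions entered 1 limma fit (limma 3.58.1, R 4.3.3), p-values were adjusted by Benjamini-Hochberg over all of them at a threshold of 0.05, and the script was tested on simulated data. Differences are mutant minus wild type. Gene names, positions and 300-base start windows came from RefSeq tables of GRCm38.p6, the assembly behind mm10. The start windows cover 17469 genes. 95 regions, 91 on chromosome 18 and 4 on an unplaced contig, were not placed relative to gene starts. Named regions were the 10 highest and 10 lowest differences, the 5 lowest wild-type means, those nearest the threshold, up to 4 per gene list, the 5 longest and the 5 with the largest mutant spread. Regions called higher, regions with all mutant replicates above, loci with many regions and the regions with printed sequence were named beyond that rule, after their values were seen. The regions and the 11 gene lists, with 442 of 444 genes matched, were chosen with earlier results of these data known. Python 3.11.15, numpy 2.4.6, pandas 2.3.3 and matplotlib 3.10.9 were used.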

Additional observations from a re-analysis of the deposited data

How the results depend on the processing

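The direction of the mean difference over the regions held under every alternative run. At a threshold of 5% the mutant mean was 0.950%, against 1.85% in the wild type (difference -0.900 points). At 15% the mutant mean was 1.93%, against 5.05% in the wild type (-3.11 points), and with every wild-type replicate under 10% it was 1.23%, against 2.77% in the wild type (-1.54 points). At 5%, 2300 regions were lower and 782 had all mutant replicates below. limma called 124 higher and 2267 lower on a logit scale with an offset of 1 point, and 20 higher and 1313 lower with a robust mean-variance trend. It called 3 higher and 4 lower at a threshold of 5%, 10 and 1376 at 15%, and 1 and 0 at a difference of at least 10 points. The cause of these shifts was not tested. Leaving out 1 replicate gave 100 to 158 regions with all mutant replicates above, 1 to 12 called higher, 306 to 500 called lower and held-out wild-type levels of 3.54% to 4.04% (3.79% for replicate 2). The mean difference at regions under 1%, 0.461 points, became -0.614 to -0.0246 points in held-out replicates (-0.137 for replicate 2). The share left in the mutant at 1 to 2% became 41.0% to 51.2% in held-out replicates.

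Deviations of same-numbered columns correlated over regions at 0.0372, 0.00489 and 0.05. Such correlations cannot show a shift shared by whole columns, so they do not settle whether the numbers pair the samples. Over all candidate regions replicates 1, 2 and 3 averaged 58.3%, 60.6% and 62.8% in the mutant, against 78.1%, 78.6% and 78.8% in the wild type. With the replicate block limma called 7 higher and 410 lower, and of 60 named regions 4 gained a call and 5 lost it. The Ppfia4 difference reversed on the logit scale (-0.0558) and without mutant replicate 2 (-5.26), and the uncalled difference of a region near Mavs ranged from -0.426 (without wild-type replicate 2) to 0.185 (without wild-type replicate 1). A coverage minimum could not be tried.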

Other observations

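Imprinted genes, which are expressed from 1 parental copy, had 20 of 405 candidate regions under 10% (4.94%, against 4.21% of all candidate regions). The 20 regions averaged 1.70% ± 0.564 in the mutant, against 4.49% ± 0.376 in the wild type (SD, n = 3 each). Of these, 15 were lower. limma called 3 lower (15%, against 13.3% of the 4511 regions and 93.5% of all candidate regions), 12 on the logit scale and 8 with the robust trend. The 3 were 2 in the potassium channel gene Kcnk9 and 1 near Cdkn1c, an inhibitor of the cell cycle. The region with the larger difference in Kcnk9 was at 0%, 0.778% and 0% in the mutant, against 9.22%, 4.78% and 11.6% in the wild type (limma, Benjamini-Hochberg adjusted p = 0.00878). The region near Cdkn1c lost its call without mutant replicate 1 or 2 or wild-type replicate 1 or 3. Genes of the methylation machinery had 6 of 142, of which 4 were lower. limma called 0 of them (0 at an unadjusted p under 0.05, 3 on the logit scale), against the same 13.3% and 93.5%. At Setdb1, a histone methyltransferase, the region was at 0%, 9.11% and 3.44% in the mutant, against 13.6%, 7.33% and 8.56% in the wild type, and it was called without mutant replicate 2. Germline genes, many of which depend on promoter methylation for silencing, had 1 of 104. Interferon and virus-sensing genes had 4 of 67, of which 3 were lower. limma called 0 there too (0 at an unadjusted p under 0.05, 1 on the logit scale). At 6 and 4 regions nothing is read from 0 calls. The region at Cgas, a sensor of cytosolic DNA, was at 0% in all 6 columns.

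The longest region, of 1733 bp, overlapped Mesd and Tlnrd1 and was at 0.564%, 0.362% and 0.340% in the mutant, against 0.660%, 0.255% and 0.351% in the wild type. Regions under 10% lay within 1 kb of a listed hypomethylated region in 29.0% of cases, against 13.3% of the other candidate regions outside the authors' lists. At a wild-type mean of 10 to 20% that share was 32.1%, so it was not particular to the regions under 10%. By chromosome the regions under 10% made up between 3.17% of candidate regions on chromosome 18 and 5.17% on chromosome 7, apart from X, with 2 of 92 (2.17%).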
